A study of Mus musculus with 18 samples.

Results

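The comparison is between heart tissue taken 24 h and heart tissue taken 1 h after myocardial infarction, the death of heart muscle behind a blocked coronary artery. Its members are 6 of the 18 samples of the series, grouped by their time labels: 3 mice at 24 h and 3 other mice at 1 h. All were 12-week-old male C57BL/6JR mice in which the left anterior descending coronary artery had been ligated under pentobarbital. The remaining 12 samples were sham-operated mice and mice at 10 min, 6 h and 72 h, with 3 in each group. The design text gives the anaesthetic as 50 mg/kg, whereas the sample labels run through 52, 53 and 54 mg/kg at 1 h and 58, 59 and 60 mg/kg at 24 h. The labels call the tissue myocardial and the cell type cardiomyocytes, and they describe no isolation of cells. Peaks of methylated DNA do not measure expression, so the labelled cell type could not be checked against its markers.

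Methylated DNA immunoprecipitation sequencing (MeDIP-seq) pulls down sheared DNA with an antibody against 5-methylcytosine and sequences what is pulled down. A peak is a stretch where such fragments pile up, and it says neither which cytosine is methylated nor in what share of cells. In mammals methylation sits mainly on the cytosine of a CG pair (CpG). Most of the genome is CpG-poor and methylated, whereas the CpG-rich start regions of many genes are usually free of it. At 1 h the ligated muscle is newly ischaemic, and by 24 h muscle cells are dying and leukocytes have entered the wall. In bulk tissue a change of methylation within a cell type and a change in the mix of cells cannot be told apart.

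Start regions are described first, since methylation there is tied to whether a gene can be switched on. A promoter was taken as 2000 bases before to 500 bases after a gene start, and the sequences printed are the 300 bases from 250 before to 50 after the start. They come from RefSeq on build GRCm38.p6, the assembly that mm10 names, and capitals mark every CG pair. The first 3 are start regions where a peak lay on the printed bases in 3 of 3 samples at 24 h and in 0 of 3 at 1 h. They belong to Lbhd1 (chr19:8883628-8883927, + strand, 3 CG pairs), Casq1 (chr1:172219846-172220145, - strand, 4 pairs) and 1 start of Rab15 (chr12:76819047-76819346, - strand, 8 pairs). Slc25a21 (chr12:57197423-57197722, - strand, 4 pairs) and Smok2b (chr17:13230013-13230312, + strand, 2 pairs) are the opposite case. Coa8 (chr12:111713019-111713318, + strand, 50 pairs) is shown for contrast, because its promoter had a peak in all 3 samples at 24 h but never on these bases. They were picked after their peaks were known.
Lbhd1: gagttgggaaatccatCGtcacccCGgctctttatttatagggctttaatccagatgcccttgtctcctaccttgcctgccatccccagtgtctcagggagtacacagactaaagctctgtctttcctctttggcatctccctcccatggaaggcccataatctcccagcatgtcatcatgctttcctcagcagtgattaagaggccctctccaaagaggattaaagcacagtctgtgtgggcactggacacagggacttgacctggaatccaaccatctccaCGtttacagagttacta
Casq1: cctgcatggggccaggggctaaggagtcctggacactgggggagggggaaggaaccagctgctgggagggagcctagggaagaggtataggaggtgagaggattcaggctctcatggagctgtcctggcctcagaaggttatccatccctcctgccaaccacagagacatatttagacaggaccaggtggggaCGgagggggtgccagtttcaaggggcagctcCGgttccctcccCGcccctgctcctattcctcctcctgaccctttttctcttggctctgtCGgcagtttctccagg
Rab15: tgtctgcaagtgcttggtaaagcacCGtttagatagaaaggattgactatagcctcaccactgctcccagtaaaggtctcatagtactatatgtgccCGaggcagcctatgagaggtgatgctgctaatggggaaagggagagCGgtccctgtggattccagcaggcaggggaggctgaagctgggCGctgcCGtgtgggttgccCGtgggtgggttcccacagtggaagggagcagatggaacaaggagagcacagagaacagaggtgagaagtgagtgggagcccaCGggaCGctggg
Slc25a21: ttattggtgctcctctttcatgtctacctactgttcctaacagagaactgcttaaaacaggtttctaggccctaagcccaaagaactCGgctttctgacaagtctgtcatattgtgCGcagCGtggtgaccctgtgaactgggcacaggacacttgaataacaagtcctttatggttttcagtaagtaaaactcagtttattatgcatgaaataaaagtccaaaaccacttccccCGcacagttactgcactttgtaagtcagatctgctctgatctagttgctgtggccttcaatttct
Smok2b: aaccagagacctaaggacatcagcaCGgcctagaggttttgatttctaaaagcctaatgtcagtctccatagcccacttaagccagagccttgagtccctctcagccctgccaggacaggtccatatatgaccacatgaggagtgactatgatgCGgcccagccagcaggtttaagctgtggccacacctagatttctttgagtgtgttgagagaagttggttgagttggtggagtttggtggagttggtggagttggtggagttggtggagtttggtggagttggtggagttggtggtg
Coa8: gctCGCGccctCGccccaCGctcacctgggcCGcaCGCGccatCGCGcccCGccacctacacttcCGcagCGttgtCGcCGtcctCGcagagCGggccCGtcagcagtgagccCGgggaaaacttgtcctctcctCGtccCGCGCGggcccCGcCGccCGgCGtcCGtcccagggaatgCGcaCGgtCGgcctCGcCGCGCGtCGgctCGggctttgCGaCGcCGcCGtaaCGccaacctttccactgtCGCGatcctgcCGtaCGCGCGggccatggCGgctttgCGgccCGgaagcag
The 5 printed starts with a peak on these bases in all 3 samples of a time hold between 2 and 8 CG pairs. Other gained promoters had a peak on the 300 bases in 2 of 3 samples at 24 h and 0 of 3 at 1 h. These were Hddc3, with a CpG-rich start of 20 pairs, Gm38999 with 7 and 4933405O20Rik with 3. Across the starts of protein-coding genes, the median was 4 pairs in 11663 CpG-poor starts and 26 in 9600 CpG-rich starts. A start was called CpG-rich when G and C made up at least 0.5 of the bases and the CG pairs were at least 0.6 of the number that base composition predicts.

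The lists at 24 h held more peaks than those at 1 h. At 1 h they held 44454, 43400 and 45466 peaks (mean 44440 ± 1033, SD, n = 3), and at 24 h they held 47244, 51063 and 47281 (48529 ± 2194, n = 3). The groups did not overlap, and the difference of 4089 peaks was 9.20% of the mean at 1 h. Among peaks with a score of at least 75 the groups overlapped, with a difference of 1662 peaks (exact permutation p = 0.4). The figures that follow are again for all peaks. A two-sided exact permutation test gave p = 0.1, the smallest that 3 against 3 samples allow, and 0.5 after adjustment over 5 measures per sample. Read numbers were not analysed here, so the part of sequencing depth in this difference was not tested.

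The genome under peaks came to 50.8 Mb ± 5.32 at 24 h and 46.6 Mb ± 2.36 at 1 h, with overlapping groups (exact permutation p = 0.2, adjusted 0.5). Peaks had a median width of 940 bases ± 57.7 at 24 h and 947 bases ± 32.3 at 1 h (exact permutation p = 1). Promoters took 2.41% ± 0.0479 of the peaks at 24 h and 2.38% ± 0.0872 at 1 h (exact permutation p = 0.7, adjusted 0.875). Protein-coding genes took 46.3% ± 0.245 and 46.1% ± 0.307 (exact permutation p = 0.4, adjusted 0.667). With the 43400 top-scoring peaks of each list, the number in the shortest list, the order turned: the share in genes was 45.8% ± 0.109 at 24 h and 46.0% ± 0.202 at 1 h. Those groups did not overlap (exact permutation p = 0.1). By chromosome, 2 of 21 shares had groups that did not overlap. Chromosome 12 took 4.38% ± 0.0952 of the peaks at 24 h and 4.54% ± 0.0149 at 1 h, and chromosome 17 took 4.35% ± 0.00628 and 4.31% ± 0.00648 (exact permutation p = 0.1 each, adjusted 0.7 over 21).

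**Figure D1:**
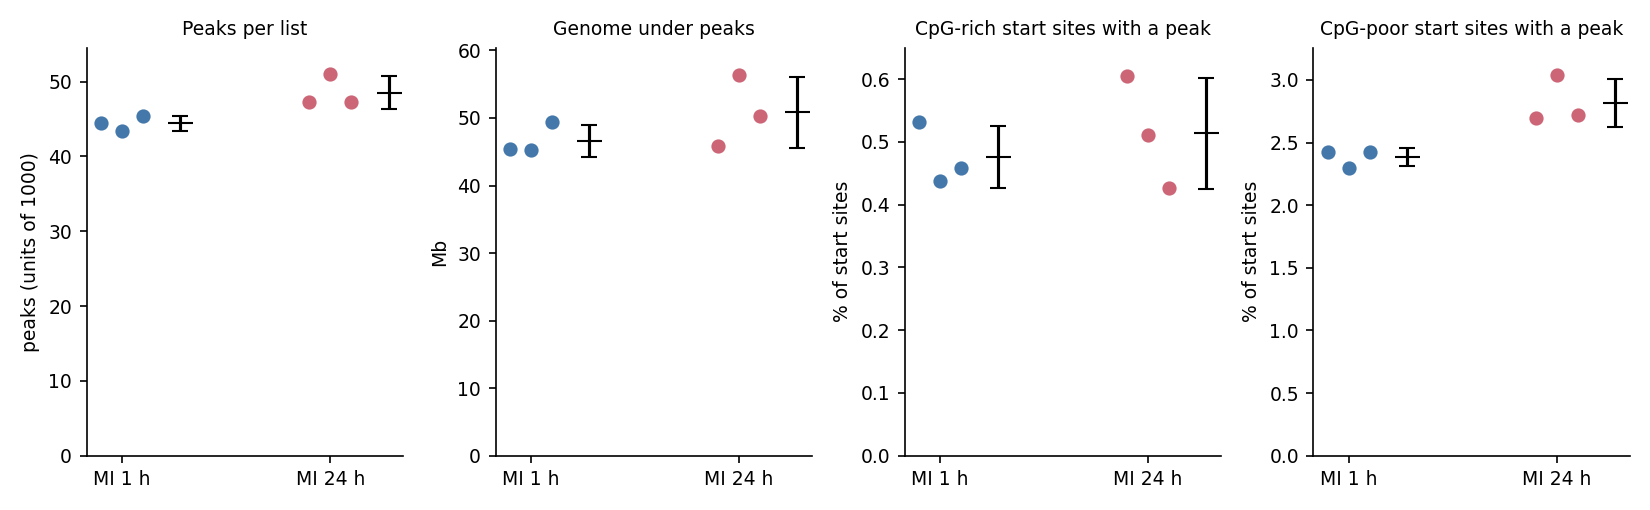
Values of each sample at 1 h (blue, n = 3) and 24 h (red, n = 3), with the mean and SD in black: peaks per list (axis in units of 1000), Mb of genome under peaks, and the percent of CpG-rich and of CpG-poor gene starts with a peak. Peak number and the CpG-poor starts are the measures drawn here in which every sample at 24 h lies above every sample at 1 h.

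Peaks overlapped to a similar extent within and across times. The Jaccard index (shared peak bases of 2 samples as a fraction of all their peak bases) was 0.368 ± 0.00715 over the 6 pairs within a time and 0.364 ± 0.00622 over the 9 pairs across times. The one-sided exact permutation test over 10 divisions of the samples gave p = 0.2, where 0.1 is the smallest possible. It gave 0.1 with a score of at least 75, and also without 1 h replicate 2, 24 h replicate 1 or 24 h replicate 3. The same test gave 0.2 with equal numbers of peaks and without 1 h replicate 3 or 24 h replicate 2, and 0.4 without 1 h replicate 1. The closest pair of all was replicates 1 and 2 at 1 h, at 0.377, and a pair across times, 24 h replicate 1 with 1 h replicate 2, reached 0.374. Between 70.0% and 73.4% of the peaks of a sample overlapped a peak in another sample of its time. The share was 84.3 to 86.6% among peaks at or above a sample's median score and 55.6 to 60.7% among the rest. Scores were set by the authors' caller and start at 50 in every list.

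Merging the 6 lists gave 103694 regions, of which 13246 (12.8%) had a peak in all 6 samples and 40337 (38.9%) in 1. A region was called gained with a peak in 3 of 3 samples at 24 h and 0 of 3 at 1 h, and lost in the opposite case. With all peaks, 951 regions were gained (0.917% of the regions) and 574 were lost (0.554%). With equal numbers of peaks, 679 of 97653 regions were gained (0.695%) and 707 lost (0.724%). The gained share of the called regions thus went from 62.4% to 49.0%. Of the calls made with all peaks, 641 gained and 525 lost regions were also called with equal numbers. Just short of the rule for gained regions lay 2333 regions with 3 samples at 24 h and 1 at 1 h, and 4941 with 2 and 0. On the lost side 1663 regions had 3 samples at 1 h and 1 at 24 h, and 3322 had 2 and 0. No single region can pass a corrected test with 3 samples against 3, so these counts are a description.

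**Figure D2:**
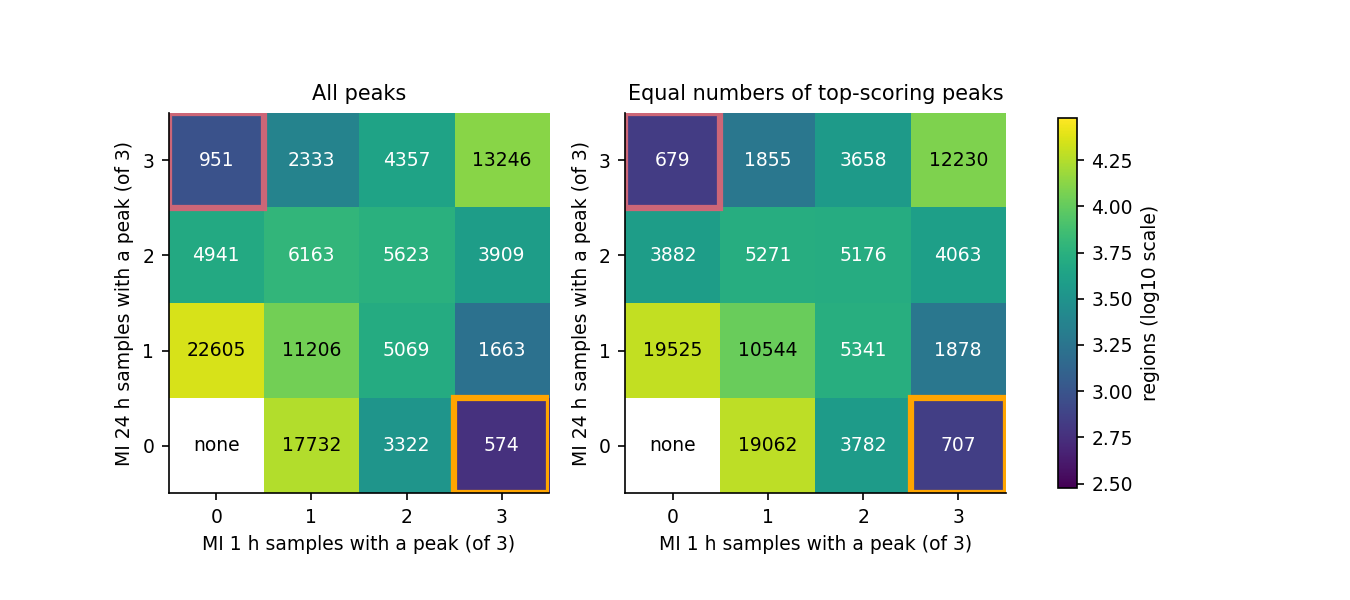
Number of merged regions by how many of the 3 samples at 1 h (horizontal) and of the 3 at 24 h (vertical) had a peak, with all peaks (left) and with equal numbers of top-scoring peaks (right); colour is the count on a log10 scale. Gained regions (red frame, 951 and 679) and lost regions (orange frame, 574 and 707) are the thinnest cells of each grid.

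Where gained and lost regions lay is given as a description, with no test. A protein-coding gene was overlapped by 49.1% of the gained, 53.8% of the lost and 48.6% of all regions, and by 38.9% of the regions in all 6 samples. Of gained, lost and all regions, promoters were touched by 2.42%, 2.09% and 2.53%, and long noncoding RNA genes by 11.7%, 10.3% and 10.0%. Their peaks were weak: the median over regions of the lowest of the 3 scores was 55.8 for gained and 55.6 for lost regions. In 69.8% of the gained and 71.6% of the lost regions that lowest score was under 60. Regions in 3 of the 6 samples in any other combination showed 56.1 and 69.7%, whereas regions in all 6 samples had a median lowest score of 69.6.

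Gained regions were ranked by the lowest of their 3 scores at 24 h, and the first of them inside genes are given here. The first was in Dnah3, a heavy chain of the dynein motor of cilia (chr7:119922464-119923109), with scores of 165.84, 121.66 and 150.07 at 24 h. Next came Nrcam, a neuronal adhesion molecule (chr12:44482637-44483332), 154.1 kb from a start, with 96.84, 149.17 and 106.35. Aaas, which encodes the nuclear pore protein aladin, held the third region 4.9 kb from its start (chr15:102345356-102346443). Its scores were 90.64, 107.13 and 107.53. At all 3 places the lists at 1 h were empty, whereas 3 of 3 sham samples had a peak.

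The fourth gained region was in Ms4a1, the gene of the B cell surface protein CD20 (chr19:11259407-11260239), with scores of 108.71, 89.07 and 141.41. It was present in 0 of 3 sham samples, 3 of 3 at 10 min, 1 of 3 at 6 h and 3 of 3 at 72 h. The fifth was in Irak3, which restrains Toll-like receptor signalling (chr10:120158481-120159550), with a narrow spread of 90.73, 85.77 and 91.06. It was found in 3 of 3 sham samples, 2 of 3 at 10 min, 0 of 3 at 6 h and 1 of 3 at 72 h. The others lay in Lrrc43, Nup210l, Mtrex, an RNA helicase of the nuclear exosome, Ktn1, the kinesin-binding protein kinectin, and Taok3, a protein kinase. Their lowest scores ran from 85.21 in Lrrc43 down to 82.91 in Taok3. Outside protein-coding genes, the first 3 gained regions lay 13.8 kb from Gm6249, 20 kb from Gm29864 and 4 kb from Pkd2l2. Their lowest scores were 97.12, 93.91 and 88.59.

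Among lost regions the first was in Itgbl1, an integrin beta-like gene (chr14:123670999-123672152), 11.4 kb from a start. Its scores at 1 h were 105.29, 98.04 and 115.31, and the lists at 24 h had no peak there. Zfp652, a zinc finger gene, held the second (chr11:95748829-95750601), with 132.82, 107.69 and 89.11. This region covers a gene start, which lies 0.6 kb from its middle, but the Zfp652 promoter was not called lost. The third was in Inpp4b, a phosphatase of phosphoinositides (chr8:81891850-81892493), with 88.97, 113.12 and 110.76.

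Smad2, which carries transforming growth factor beta signals into the nucleus, held the fourth lost region, with scores of 100.74, 83.87 and 85.12 at 1 h. Apart from 1 of 3 sham samples, the Smad2 peak was in none of the samples at 10 min, 6 h and 72 h. The others were in Rnf13, a ubiquitin ligase, Mboat2, a phospholipid acyltransferase, E130308A19Rik, Rps6ka1, the kinase RSK1, Zfyve16, an endosomal protein, and Cyp4f40, a cytochrome P450. Their lowest scores lay between 83.87 in Rnf13 and 80.59 in Cyp4f40. Outside protein-coding genes, the first 3 lost regions were 7.9 kb from Gm2700, 15.5 kb from Samsn1 and 113.3 kb from Rpl34-ps2. All 26 named regions kept their calls when 50% of a region had to be covered.

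Gene by gene, with 2000 bases on either side, 116 of 21887 protein-coding genes were gained (0.53%) and 67 lost (0.306%). Equal numbers of peaks gave 83 gained (0.379%) and 95 lost (0.434%). Of the promoters of 17492 genes, 22 were gained (0.126%) and 9 lost (0.0515%) with all peaks, and 14 (0.08%) and 15 (0.0858%) with equal numbers. The gained share of called promoters moved from 71.0% to 48.3%.

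The first gained promoter was that of Tigd4, a gene derived from a transposase, with peak scores of 86.93, 104.58 and 124.3 at 24 h. It was followed by Arid3c, of a family of DNA-binding proteins, with 141.5, 109.8 and 81.85, and by Lbhd1 with 72.45, 71.96 and 78.5. Coa8, an assembly factor of cytochrome c oxidase, scored 127.19, 95.45 and 67.46, and Ten1, a telomere-capping protein, scored 57.76, 59.1 and 66.17. In the samples outside the comparison, the Arid3c promoter had a peak in 2 of 3 sham samples and in 3 of 3 at 10 min, 6 h and 72 h. Its empty lists were thus those at 1 h and 1 sham sample.

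The lost promoters began with Gm41844, with 89.63, 73.32 and 83.73 at 1 h, and Slc25a21, a mitochondrial carrier of oxodicarboxylates, with 86.31, 72.09 and 95.76. Eepd1 scored 71.67, 63 and 62.16. Rpp25, a subunit of ribonuclease P, scored 68.08, 60.65 and 62.78, and had a peak in 1 of the 12 other samples. Smad5, a transducer of bone morphogenetic protein signals, scored 74.28, 56.74 and 65.33, with all 3 of its starts CpG-rich and no peak on their 300 bases.

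Further down, 2 gained promoters had no peak within the promoter window in any of the 12 other samples. Within these windows peaks were seen at 24 h alone. Hk1, the hexokinase that traps glucose in the cell, scored 73.22, 124.54 and 55.77, also with equal numbers of peaks. Its promoter joins the windows of 2 starts, and no merged region at Hk1 had peaks at 24 h alone. The whole Hk1 gene held 6, 5 and 7 peaks at 1 h and 7, 8 and 5 at 24 h. Mdm4, an inhibitor of p53, scored 53.16, 53.69 and 82.15 with all peaks and was not called with equal numbers. Casq1, a calcium-binding protein of the sarcoplasmic reticulum best known from skeletal muscle, scored 79.31, 69.18 and 51.22, and it too was called with all peaks only. These 3 genes were chosen after their values were seen.

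More of the CpG-poor starts carried a peak at 24 h than at 1 h, and CpG-rich starts did not differ beyond their spread. On the 300 bases around the start, 0.531%, 0.438% and 0.458% of CpG-rich starts had a peak at 1 h and 0.604%, 0.51% and 0.427% at 24 h (exact permutation p = 0.7). For CpG-poor starts the values were 2.43%, 2.30% and 2.43% at 1 h and 2.69%, 3.04% and 2.72% at 24 h. Every CpG-poor value at 24 h lay above every value at 1 h. The means were 2.82% ± 0.191 and 2.38% ± 0.0743, a difference of 0.432 percentage points (exact permutation p = 0.1, adjusted 0.2 over both classes). With equal numbers of peaks the CpG-poor means were 2.54% ± 0.0818 and 2.34% ± 0.0477 (exact permutation p = 0.1). The split by CpG content was made after the lists had been examined.

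Around CpG-rich starts the share with a peak lay between 2.76 and 4.07% at 3.5 kb inside the gene and between 0.344 and 0.469% at the start itself. At that lowest point the values were 0.469, 0.375 and 0.406% at 1 h and 0.458, 0.406 and 0.344% at 24 h, with overlap. Around CpG-poor starts the dip was shallow and lay before the start. At 0.5 kb before it the 6 samples ran from 1.30 to 1.74%. At the CpG-poor start itself the samples at 1 h gave 1.92, 1.95 and 1.97% and those at 24 h gave 2.33, 2.54 and 2.13%, again without overlap.

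**Figure D3:**
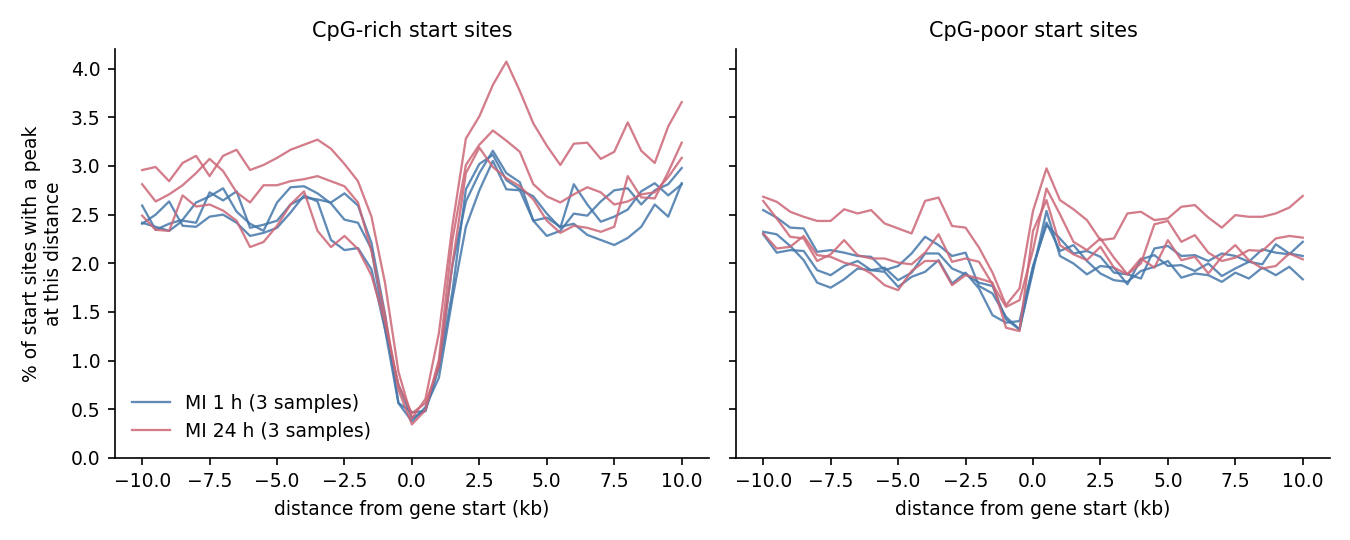
Percent of gene starts with a peak at each distance from the start in kb (negative before the gene, positive inside it), for 9600 CpG-rich starts (left) and 11663 CpG-poor starts (right), with 1 line per sample at 1 h (blue) and 24 h (red). The dip at CpG-rich starts, down to 0.344%, is shared by all 6 samples, and the red lines lie above the blue ones at the CpG-poor start.

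Long genes allow a finer count, the number of peaks inside the gene. With equal numbers of peaks per list, 182 of 21887 genes had more peaks in every sample at 24 h than in any at 1 h (0.832%), and 217 had fewer (0.991%). With all peaks the counts were 311 (1.42%) and 130 (0.594%). Ablim1, an actin-binding protein, went from 5, 3 and 4 peaks at 1 h to 6, 11 and 11 at 24 h. Dlc1 went from 2 in each sample to 6, 6 and 8. Large gaps follow from the choice, since the genes named here were ranked by this difference in the same samples. Fgf12, an intracellular growth factor homologue that binds sodium channels, went from 6, 4 and 3 to 8, 8 and 10. Ptprt, a receptor tyrosine phosphatase, held 14, 10 and 12 peaks at 1 h and 16, 18 and 15 at 24 h. Naaladl2 held 6, 8 and 5 against 9, 11 and 11.

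Sox5, a transcription factor gene of 954 kb, held 30, 31 and 34 peaks at 1 h and 24, 26 and 24 at 24 h. The cut to equal numbers took more peaks from the lists at 24 h, which were longer. With all peaks the Sox5 groups overlapped (30, 31 and 35 against 26, 36 and 29), so they were apart with equal numbers only. The same held for Anks1b, which had 20, 20 and 21 peaks against 13, 16 and 18, and 20, 20 and 22 against 14, 20 and 21 with all peaks. For Cdk14, a cyclin-dependent kinase, the counts were 16, 11 and 13 against 9, 10 and 8, and with all peaks the ranges met, at 16, 11 and 13 against 9, 11 and 8. Syne2, the nuclear envelope protein nesprin-2, went from 16, 13 and 13 to 12, 9 and 8, and its ranges met with all peaks, at 17, 13 and 13 against 13, 11 and 8. Tmem232 held 13, 14 and 13 against 7, 10 and 10, and of these 5 genes it was the one whose ranges were apart with all peaks, at 14, 14 and 13 against 11, 12 and 11.

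**Figure D4:**
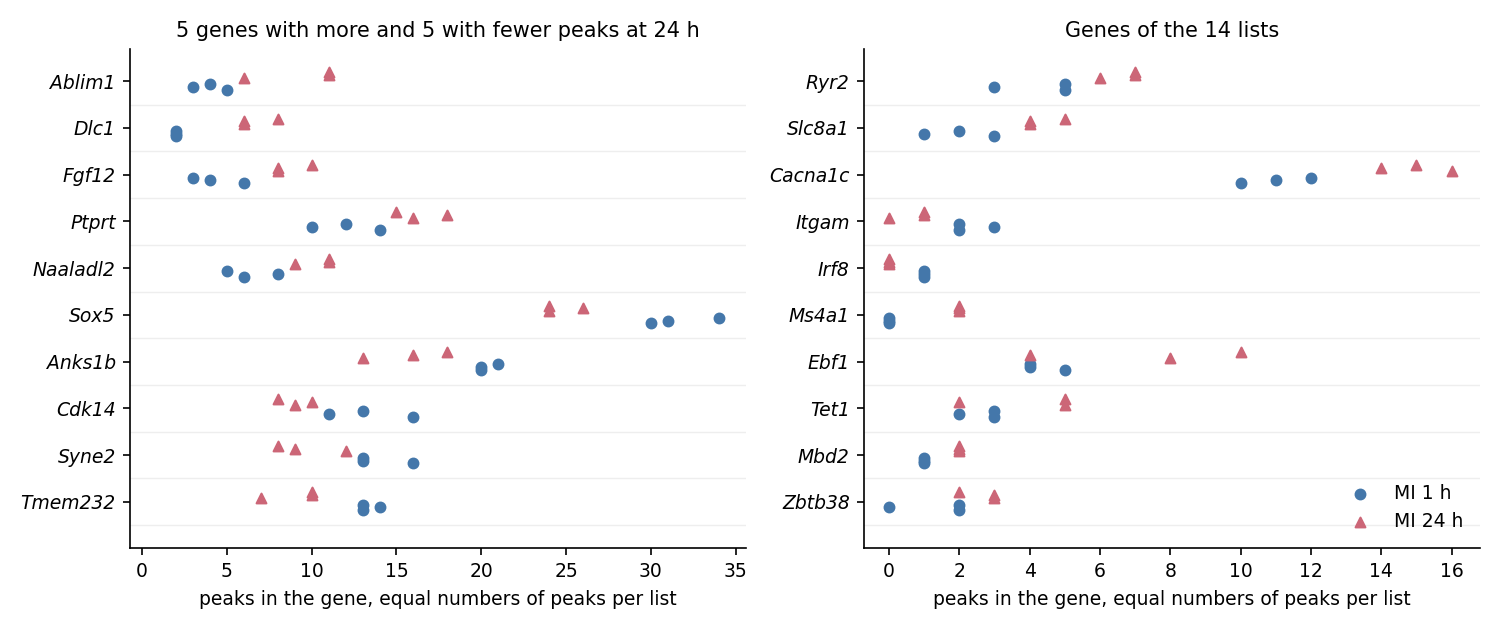
Peaks inside the gene in each sample at 1 h (blue circles) and 24 h (red triangles), with equal numbers of peaks per list, for the 10 genes named by size of difference (left) and for list genes whose groups were apart in at least 1 setting (right). In the right panel Cacna1c lies at 10 to 12 peaks at 1 h and 14 to 16 at 24 h, whereas Itgam lies at 2 to 3 and 0 to 1.

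Genes of heart muscle, injury and leukocytes were followed through 14 lists, 282 genes in all. With all peaks, 8 of them had more peaks at 24 h with groups apart (2.84%, against 1.42% of all genes) and 2 had fewer (0.709% against 0.594%). With equal numbers, 5 had more (1.77% against 0.832%) and 2 had fewer (0.709% against 0.991%). Median gene length was 19.6 kb in the lists and 17.2 kb over all genes. The lists were written with earlier results of these data known, and their counts are a description.

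Calcium handling and conduction contributed 3 of the 8 genes. Cacna1c, the pore of the L-type calcium channel that starts each contraction, held 10, 11 and 12 peaks at 1 h and 18, 16 and 16 at 24 h. Ryr2, the calcium release channel of the sarcoplasmic reticulum, went from 5, 3 and 5 to 6, 8 and 7. Slc8a1, the sodium-calcium exchanger that clears calcium from the cell, went from 3, 1 and 2 to 4, 4 and 6. All are long genes, of 610, 554 and 365 kb, and all kept groups apart with equal numbers. In sham mice Cacna1c held 14, 20 and 17 peaks, at 10 min 14, 10 and 9, at 6 h 13, 10 and 10, and at 72 h 27, 21 and 15. Sham mice held 4, 8 and 5 peaks in Ryr2 and 3, 4 and 2 in Slc8a1, values that overlap those at 1 h and those at 24 h. Sham lists were of unequal length, 44328 to 60130 peaks, and these counts use all peaks. Over the 20 genes of this list, the share of gene length under peaks was 1.45% ± 0.157 at 24 h and 1.17% ± 0.115 at 1 h, without overlap. With equal numbers, at 1.34% ± 0.142 and 1.16% ± 0.109, the groups overlapped. The median difference in peaks per gene was 0.333 in this list and 0 over all genes. Means were equal at both times in 4 of the 20 genes here and in 11567 of 21887 genes. The genes were not matched for length.

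For fuel use and mitochondria the share of gene length under peaks was 1.55% ± 0.153 and 1.21% ± 0.182, again apart with all peaks and overlapping with equal numbers (1.38% and 1.14%). No gene of this list was gained or lost. Over all protein-coding genes the shares were 2.19% ± 0.234 and 2.003% ± 0.0911 with all peaks, and 1.95% at both times with equal numbers. Sarcomere genes gave 3.21% ± 0.458 and 2.66% ± 0.257, and cardiac transcription factors gave 1.60% ± 0.408 and 1.69% ± 0.425. Hypoxia and glycolysis genes stood at 2.85% ± 0.643 and 2.54% ± 0.505, and immediate early and stress genes at 3.46% ± 0.537 and 3.70% ± 0.602. In these 4 lists the groups overlapped, no gene was gained or lost, and the median difference in peaks per gene was 0. Among the 20 cardiac transcription factors, 8 (40.0%) had a peak within 2000 bases of the gene in all 6 samples and 6 (30.0%) had none, against 26.9% and 32.6% of all genes.

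Of the 282 list genes, 1 was gained and 1 lost, against 0.53% and 0.306% of all genes, so these are single genes and no pattern of a list. Irf8, a transcription factor of monocytes and dendritic cells, was lost, with scores of 76.92, 60.1 and 85.97 at 1 h and no peak within 2000 bases of the gene at 24 h. It was also without a peak in 3 of 3 samples at 6 h, and had one in 2 of 3 sham samples, 3 of 3 at 10 min and 1 of 3 at 72 h. Itgam, the integrin CD11b of neutrophils and macrophages, held 2, 3 and 2 peaks at 1 h and 1 in each sample at 24 h. No sample of the other 4 groups had more than 1 peak in Itgam, so its level at 1 h was the highest of the series. Ms4a1, described above, held 0 peaks at 1 h and 2 in each sample at 24 h. Ebf1, a B cell transcription factor, went from 5, 4 and 5 to 9, 7 and 11 with all peaks, and its groups overlapped with equal numbers.

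By list, lymphocyte markers had 1.87% ± 0.117 of gene length under peaks at 24 h and 1.68% ± 0.119 at 1 h, apart with all peaks but not with equal numbers (1.59% and 1.57%). Macrophage markers stood at 1.68% ± 0.350 and 1.83% ± 0.397 and neutrophil markers at 3.08% ± 0.538 and 2.95% ± 0.261, with overlap. Inflammatory signals gave 2.38% ± 0.961 and 2.18% ± 0.406. Of the markers of other cells, fibroblast and matrix genes gave 2.63% ± 0.348 and 2.50% ± 0.156 and endothelial genes 3.81% ± 0.909 and 3.56% ± 0.147. Cell death and autophagy genes gave 1.75% ± 0.216 and 1.70% ± 0.353. The groups overlapped in all of these lists but that of lymphocyte markers. The inflammatory, neutrophil, fibroblast, endothelial and cell death lists held 0 gained and 0 lost genes.

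Enzymes and readers of methylation had 3.18% ± 0.743 of gene length under peaks at 24 h and 2.28% ± 0.436 at 1 h, and the groups overlapped. Mbd2, which binds methylated CpG, held 1 peak in each sample at 1 h and 2 in each at 24 h in both settings, but it also held 2 in every sample at 10 min and 6 h. Tet1, which oxidises 5-methylcytosine, went from 3, 2 and 3 to 5, 4 and 5, and Zbtb38, another methyl-CpG binder, from 2, 0 and 2 to 3, 3 and 3. Both overlapped with equal numbers of peaks.

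MicroRNA hairpins were the last class examined, added after the lists had been seen. Of 1005 hairpins, 51, 41 and 44 had a peak at 1 h and 48, 59 and 53 at 24 h. With all peaks 7 were gained (0.697%) and 0 lost (0%), and with equal numbers 3 were gained (0.299%) and 0 lost (0%). The 3 called in both settings were Mir7678 within Slpi, Mir6418 within Gnb2, and Mir468. Their peak scores at 24 h were 95.83, 78.64 and 66.73 for Mir7678, 87.26, 68.17 and 66.67 for Mir6418, and 165.84, 66.69 and 102.08 for Mir468. Mir296 and Mir298, neighbours under 1 peak (51.23, 52.3 and 64.35), were called with all peaks only. Each of the 12 mature microRNAs of the 7 hairpins has a seed of its own. Those of the first 3 are printed as RNA with the seed, bases 2 to 8, in capitals.
mmu-miR-7678-5p: uUACAAGGgcuggauaggaau
mmu-miR-7678-3p: uUUCCUUAcuuucucuuguagc
mmu-miR-6418-5p: uCAGGGGAagggaagagaugc
mmu-miR-6418-3p: aCUGCAACcuccuuucuccagg
mmu-miR-468-5p: gACUGAUGuacugauaagaaacucagu

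The 12 samples that had no part in choosing the regions gave an independent reading of them. In each, the share of the 951 gained regions with a peak was set against the share of the 574 lost regions. At 72 h the gained regions were the more often occupied: 57.0% against 45.6% in replicate 1, 60.5% against 53.7% in replicate 2 and 44.7% against 39.2% in replicate 3. The differences were 11.3, 6.80 and 5.49 percentage points. In every sham, 10 min and 6 h sample the lost regions were the more often occupied, with differences between -0.762 and -11.3 points. Group means with their SD over 3 samples were -9.02 ± 2.53 points in sham, -5.78 ± 5.10 at 10 min, -4.96 ± 4.43 at 6 h and 7.88 ± 3.07 at 72 h.

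The 72 h samples stood 14.5 points above the mean of the other 9 samples (two-sided exact permutation p = 0.00455, the smallest that 220 assignments allow). This test was chosen after the values were seen. The lists at 72 h are long, with 48608 to 60653 peaks, so the 34255 top-scoring peaks of each of the 18 lists were also used. The difference was then 13.6 points (exact permutation p = 0.00455), at 7.60 ± 0.934 against -6.05 ± 4.35, and the highest of the 9 was a 6 h sample at 0.0269. With a score of at least 75 the difference shrank to 4.23 points (exact permutation p = 0.0182). Leaving 24 h replicate 1 out of the choice of regions gave 6.78 points, and leaving out 24 h replicate 2 gave 8.92 (exact permutation p = 0.0136 and 0.00455).

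**Figure D5:**
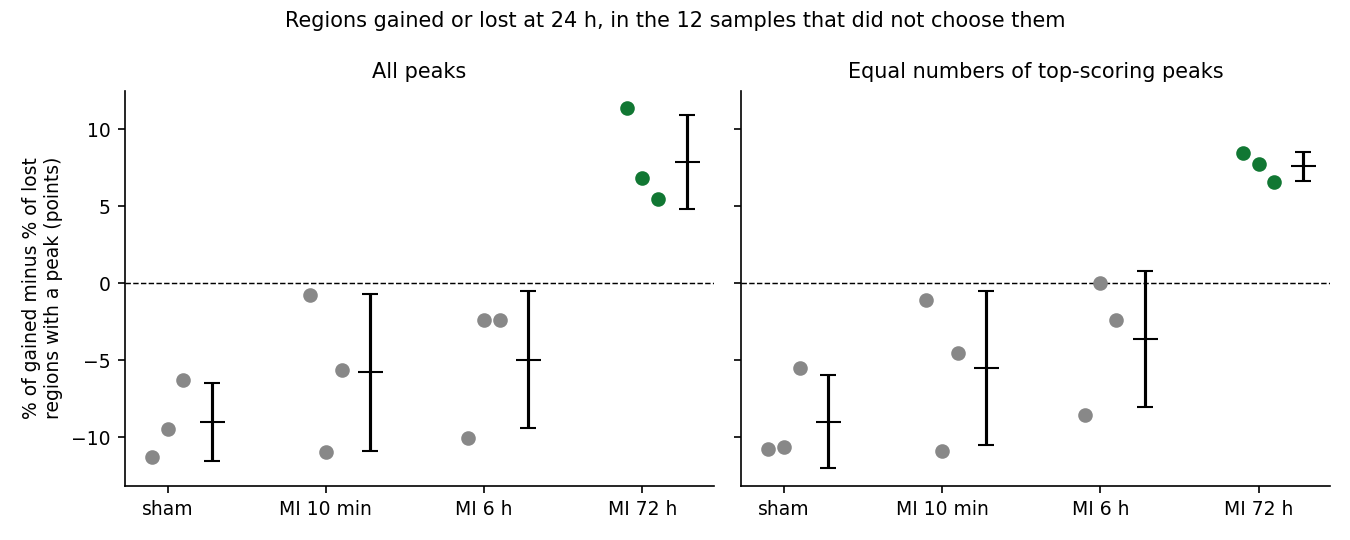
Percent of gained regions with a peak minus percent of lost regions with a peak, in points, for each of the 12 samples that did not choose the regions (3 per group), with mean and SD in black, for all peaks (left) and equal numbers of peaks (right). The 3 samples at 72 h (green) lie above the dashed line at 0, at 5.49 to 11.3 with all peaks, and the other 9 (grey) lie below it with all peaks.

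Few of the called regions were peculiar to their time. Of the gained regions, 25 (2.63%) had no peak in any of the 12 other samples, and of the lost regions 15 (2.61%) had none. The median called region had a peak in 5 of the 12. For comparison, regions in all 6 samples had a median of 12, and regions in 1 of the 6 had a median of 1. Among the 25 regions seen at 24 h alone, 13 lay in a protein-coding gene. The one with the highest lowest score was in Kif2a, a kinesin that takes microtubules apart (chr13:107015996-107016709), with scores of 57.57, 83.95 and 92.78. Others lay in Macf1, a linker of actin and microtubules, and in Il17ra, the receptor of interleukin 17, with lowest scores of 54.1 and 53.09. Of the 15 seen at 1 h alone, 7 lay in a gene. By the lowest score they were led by Lrp1b, a lipoprotein receptor relative (chr2:42004868-42005608), with 100.31, 65.38 and 90.55. These 4 genes were chosen after their values were seen.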

How the data were processed

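MeDIP-seq peak lists of 6 samples (3 mice at 24 h, 3 at 1 h) were compared, and the lists of the other 12 samples served as an independent reading. Per the submitters' processing notes, reads were aligned to mm10 with Bowtie2 and peaks were called with MACS2, and peak names in the lists carry the caller's name. Versions, options, the use of an input library and the scale of the score are not given in the sources used here. Each deposited list belongs to 1 sample and gives a position and a score for each peak; the score is the authors' own and was used only to rank and filter. No read counts were used, so depth is unknown and no interval for counting error is given. The precision of every value is the spread over 3 mice.

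Peaks of the 6 lists were merged into regions where they shared at least 1 base. Each region, gene (with 2000 bases on either side) and promoter was scored in each sample as having a peak or not, with all peaks and with the 43400 top-scoring peaks of each list. Gene positions and 21263 starts were taken from RefSeq tables of GRCm38.p6, and exons and introns were not analysed here. Positions are counted from 1. Single values per sample were compared by exact permutation tests with Benjamini-Hochberg adjustment within families of 5 measures, 2 start classes and 21 chromosomes. Alternatives were equal numbers of peaks, a score of at least 75, peak midpoints, 50% of a region covered, bins of 1000 bases, a promoter of 500 bases on either side of the start, each replicate left out and a replicate block.

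Named were the first 10 gained and 10 lost regions at a gene and the first 3 of each outside genes. They were called in both settings and ranked by their lowest score. Also named were the first 5 gained and 5 lost promoters ranked likewise, list genes that were gained or lost, and the 5 genes in each direction with the largest difference in peaks per gene among those with groups apart. Members, lists and rules were chosen with earlier results of these data known, and the start classes, microRNA hairpins and the reading at 72 h were added after the lists had been examined. Computations used Python 3.11.15, numpy 2.4.6, pandas 2.3.3 and scipy 1.17.1, and the overlap and permutation code was tested on simulated data.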

Additional observations from a re-analysis of the deposited data

Results flagged for a closer look

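The share of gained regions with a peak minus the share of lost regions with a peak was above 0 in all 3 samples at 72 h and below 0 in all 9 sham, 10 min and 6 h samples, none of which chose the regions. The 72 h samples lay 14.47 percentage points above the mean of the other 9 (two-sided exact permutation p = 0.00455), and the comparison was chosen after the values were seen. With equal numbers of peaks 1 of the 9 samples, 6 h replicate 2, stood just above 0, at 0.0269 points.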

How the results depend on the processing

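Peak number, covered length and the difference in similarity kept their direction under every alternative run. The difference in peak number fell to 1662 at a score of at least 75 (exact permutation p = 0.4). The difference in median width was 0.333 bases with equal numbers of peaks and ran from -31.3 to 24.7 with 1 replicate left out. The promoter share differed by -0.0078 points among peaks with a score of at least 75 and by -0.00976 to 0.0728 with 1 replicate left out, and the gene share by -0.223 with equal numbers. Counts depended on the setting. Gained regions numbered 367 at a score of at least 75 and 1909 in bins of 1000 bases, lost regions 292 and 1215. Gained promoters numbered 14 with equal numbers, 9 at the higher score and 9 with the narrower promoter, lost promoters 15, 3 and 2. With 1 replicate left out, which asks for fewer samples, gained and lost regions numbered 1717 to 2765 and 1070 to 1768, genes 250 to 287 and 132 to 178, and promoters 35 to 78 and 24 to 51. The 72 h difference ran from 6.78 to 15.7 points over the replicates left out and was 4.23 at the higher score. In the fit with the replicate block the difference in peak number was 4089, with an exact sign-flip p of 0.25, the smallest that 3 pairs allow, so the replicate block cannot change a call. The numbers did not pair the samples: correlations of same-numbered samples were -0.00717, -0.00305 and 0.0137. Depth is unknown, and with 3 mice a group the exact permutation tests of 24 h against 1 h cannot give a p below 0.1.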
